A study of Saccharomyces cerevisiae with 56 samples.

Results

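The genes described here are 33 genes of budding yeast whose symbols begin with TRM, PUS, ELP, DUS, NCL or TAD and end in a number, the naming used for enzymes that modify tRNA and for their partner subunits. They were chosen by symbol, not by a measured value, though with earlier results of these data known. The 33 came from 5592 rows that were not dubious open reading frames and kept countable positions. The set holds 16 methyltransferases and partners (NCL1, TRM1, TRM2, TRM3, TRM5, TRM7, TRM8, TRM9, TRM10, TRM11, TRM12, TRM13, TRM44, TRM82, TRM112 and TRM732), 7 pseudouridine synthases (PUS1, PUS2, PUS4, PUS5, PUS6, PUS7 and PUS9), 4 subunits of Elongator (ELP2, ELP3, ELP4 and ELP6), 3 dihydrouridine synthases (DUS1, DUS3 and DUS4) and 3 adenosine deaminase genes (TAD1, TAD2 and TAD3). The authors' column for ribosome biogenesis (ribi) genes marks 1 of the 33, TRM112.

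After transcription, tRNA bases and riboses are methylated, isomerised, reduced or deaminated by dedicated enzymes, and these changes hold the folded tRNA together and tune decoding at the anticodon. Elongator adds a side chain to the wobble uridine, which the TRM9 and TRM112 proteins then finish, while the TAD2 and TAD3 proteins form the deaminase that makes wobble inosine. Not every enzyme in the list acts on cytosolic tRNA: the product of PUS5 modifies mitochondrial ribosomal RNA, and that of PUS9 mitochondrial tRNA.

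The data are ribosome profiling and matched RNA-seq of 28 samples in 56 libraries, 1 sample per condition. Starved cells were kept for 20 min in minimal medium lacking amino acids, and replete cells were the rest of the same culture. Footprint RPKM divided by mRNA RPKM is the translation efficiency (TE), the ribosome load per mRNA. Cycloheximide (CHX), which stops elongating ribosomes, was added to the cultures before harvest by centrifugation in all samples but 1 starved and replete pair, which was collected by vacuum filtration with no drug.

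Starved and replete samples with CHX came from BY4741 (MATa his3Δ1 leu2Δ0 met15Δ0 ura3Δ0) and from reporter strains derived from it. In yJW1861 and yJW1862 the NOP2 coding sequence is replaced by that of Kluyveromyces lactis and an added NOP2 copy is driven by the CCW12 or the NOP2 promoter, and yJW1863 carries EGFP driven by the NOP2 promoter between ADH1 untranslated regions. The strain labelled yJW1864 is given as dot6::LEU2 tod6::URA3 stb3::kanMX6, a deletion of 3 repressors of ribi transcription in the same background. Its URA3 marker, a gene deleted in BY4741, had 60.3 mRNA RPKM replete and 51.0 starved. The pair without CHX is BY4741. A separate set of 16 time points, all with CHX, follows 1 yeast metabolic cycle (YMC) of CEN.PK, a MATa prototroph whose continuous culture oscillates between reductive and oxidative metabolism.

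Counts on genes in the starvation libraries with CHX ran between 3812458 and 8295127 footprints in starved samples and between 9359228 and 20036606 in replete samples, and mRNA counts between 9648356 and 14773359 in both. The pair without CHX had 5730433 footprints starved and 3632217 replete. The YMC footprint libraries held between 10133399 and 27429226. GCN4, the transcription factor whose translation rises on amino acid starvation, had 886 footprint RPKM in starved BY4741 with CHX, against 22.5 in replete, and 678 starved against 51.5 replete in the strain labelled yJW1864. In the libraries labelled yJW1864, DOT6 had 9 mRNA counts starved and 4 replete, and TOD6 had 0 and 1, but STB3 had 1062 and 921, within or near the 974 to 1624 of the 4 other strains. These STB3 counts go against the label of an STB3 deletion, and every direction drawn from this strain holds for libraries labelled yJW1864. MET15, which BY4741 lacks, had 255 footprints in its starved and 148 in its replete library with CHX, or 66.9 and 7.94 CPM (footprints scaled to the library total), against 1845 to 7429 CPM in the CEN.PK footprint libraries. The matched mRNA libraries held 7 starved and 11 replete MET15 counts, and every other BY4741-derived library held 0.

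Starvation lowered the mRNA of nearly all of these genes in BY4741, yJW1861, yJW1862 and yJW1863. In edgeR's quasi-likelihood test with the strain as a block, 30 of 33 members fell and 1 rose at an adjusted p under 0.05, where 38.1% of the 5061 genes tested fell and 42.1% rose. Their median log2 change in mRNA was -1.05, against 0.03 over all genes tested. Footprints fell for 29 members and rose for 1, with a median of -1.83, against 36.1% of all genes falling and 39.9% rising. TE fell for 19 members and rose for 1, with a median log2 change of -0.68, against 25.3% and 15.8% of all genes. Without the block the TE calls over all genes were 988 in place of 2081, and falling members numbered 27 in place of 30 in mRNA and 17 in place of 19 in TE. Taken strain by strain from RPKM, the members' median change in TE was -0.71 ± 0.10 (SD over 4 strains), and that in mRNA was -1.07 ± 0.14. Genes that the authors mark as ribi had larger median changes, of -1.82 ± 0.13 in mRNA and -1.39 ± 0.10 in TE (SD over the same 4 strains). The strains differ in genotype and each gave 1 culture, so mRNA and footprint p-values measure the spread of changes between strains. The TE test pools the spread of both library types and treats the matched libraries of 1 sample as independent. Counts of calls for mRNA and footprint falls and for TE falls moved by less than 1.5 times when any strain was left out.

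**Figure D1:**
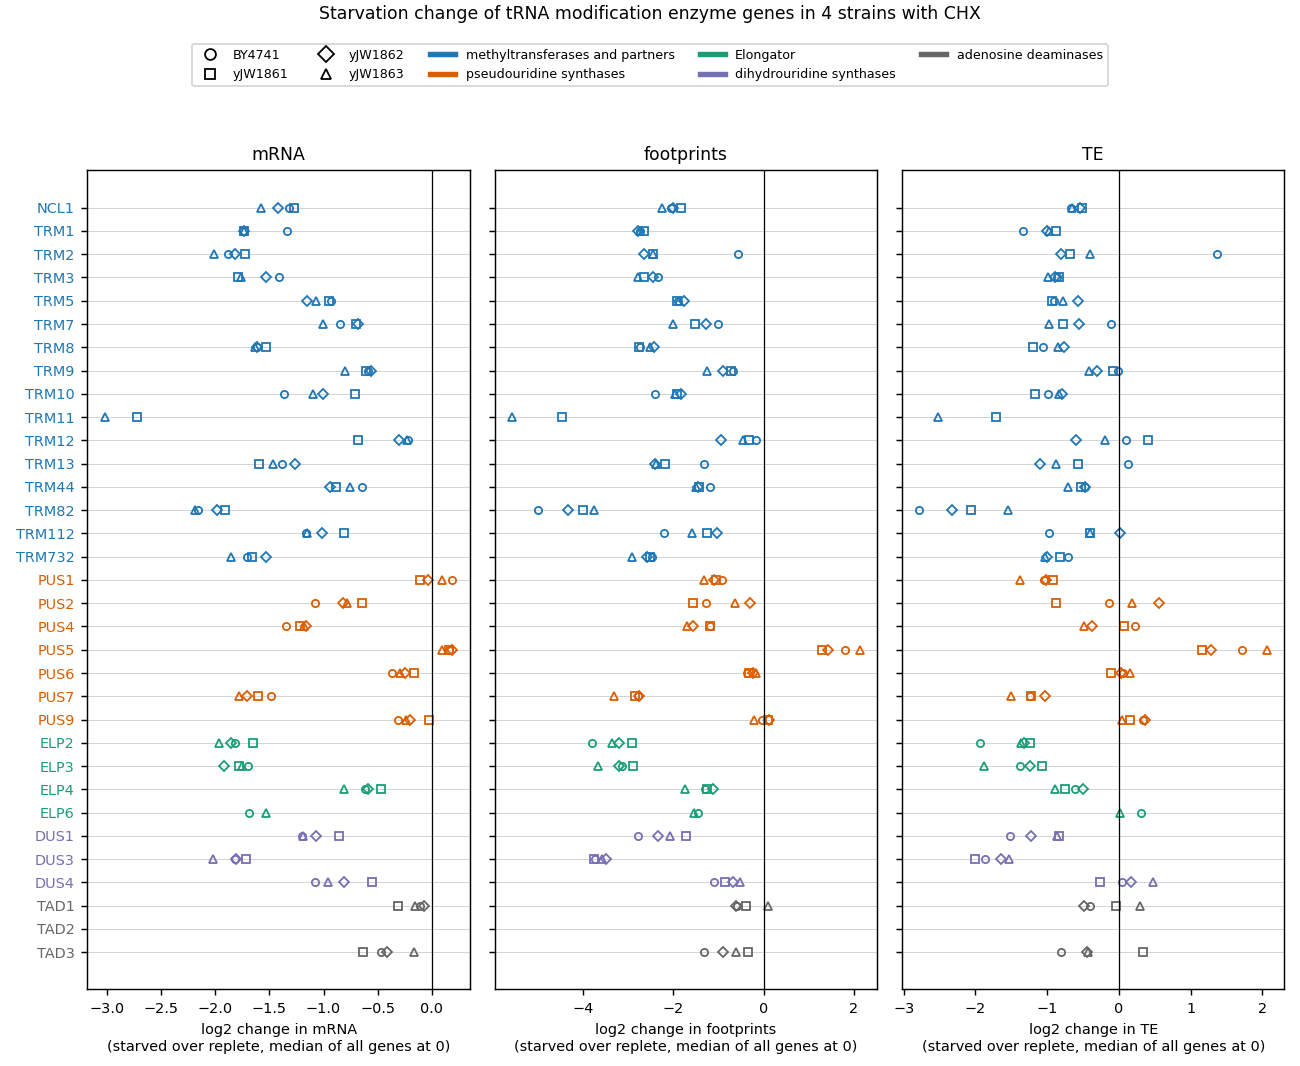
Log2 change, starved over replete, of mRNA, footprints and TE for each of the 33 genes, from deposited RPKM with the median of all genes set to 0. Each symbol is 1 of 4 strains with CHX and colours give the enzyme group. Pairs under the minimum mRNA counts are left out, so TAD2 has no symbol and TRM11 and ELP6 have symbols of only some strains. PUS5 stands to the right in footprints and TE, and TRM82 and TRM11 stand farthest to the left.

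All 16 methyltransferase and partner genes fell in mRNA and in footprints, with median log2 changes of -1.39 and -2.0, and 12 of the 16 also fell in TE. TRM82, the partner subunit of an enzyme that makes methylguanosine (chromosome IV, 784871 to 786205), had 17, 21.8, 21.8 and 22 mRNA RPKM in starved BY4741, yJW1861, yJW1862 and yJW1863. Replete, the same strains had 67.0, 71.6, 75.3 and 85.3 RPKM. Its footprints were 1.45, 5.30, 4.08 and 7.11 RPKM starved, against 36.7, 71.3, 66.3 and 73.6 replete. Starved and replete values did not overlap in either measure, and BY4741 was lowest in both states. Counts of BY4741 left out more of each coding sequence than those of yJW1861, yJW1862 and yJW1863, equally in both states. The log2 change was -2.04 ± 0.06 (SE) in mRNA, -4.12 ± 0.16 in footprints and -2.08 ± 0.18 in TE (edgeR adjusted p = 3.1e-06 for TE). Its catalytic partner TRM8 changed less, by -1.57 ± 0.05 in mRNA and -1.02 ± 0.11 in TE (edgeR adjusted p = 2.2e-05 for TE).

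TRM11, the catalytic subunit of another methylguanosine enzyme, which works with TRM112, had the lowest fitted changes of the 33 genes. It had 4.76, 6.52, 6.11 and 5.93 mRNA RPKM in the starved strains, against 30.4, 37.5, 34.8 and 40.9 replete. The starved libraries held only 3, 22, 24 and 17 footprints, against 664, 925, 562 and 999 replete. The fitted log2 change was -2.81 ± 0.08 in mRNA, -4.88 ± 0.22 in footprints and -2.10 ± 0.25 in TE, edgeR adjusted p = 5.4e-05 for TE. TRM112, its partner and the partner of TRM9, changed by -1.01 ± 0.07 in mRNA and by -0.49 ± 0.20 in TE, which did not pass (edgeR adjusted p = 0.069). TRM13, a ribose methyltransferase of the acceptor stem, is the convergent neighbour of TRM11 on chromosome XV (83834 to 85264, against 85456 to 86757), and changed by -1.40 ± 0.07 in mRNA and -0.75 ± 0.19 in TE. TRM13 lost its TE call without yJW1862 and without yJW1863, at -0.61 and -0.66.

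TRM2, which makes ribothymidine, fell strongly in mRNA but not detectably in TE. Its mRNA was 12.7, 17.4, 16.5 and 14.1 RPKM starved, against 41.2, 50.04, 50.7 and 48.3 replete, a log2 change of -1.83 ± 0.06. Footprints were 13.7, 7.07, 6.2 and 8.04 RPKM starved, against 16.0, 32.1, 31.3 and 33.4 replete. BY4741 was the exception, with a footprint change of -0.57 where the other strains had -2.66 to -2.45. Over all 4 strains the TE change was -0.19 ± 0.34 and did not pass (edgeR adjusted p = 0.69), whereas without BY4741 it was -0.68 and passed, and without any of the other strains it lay between -0.08 and 0.03. The part of the MET15 footprints of BY4741 in this was not tested.

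Further genes of the group fell in both mRNA and TE. TRM1, which makes dimethylguanosine, changed by -1.61 ± 0.08 in mRNA and -1.11 ± 0.11 in TE. TRM3, a ribose methyltransferase, changed by -1.60 ± 0.07 and -0.97 ± 0.12, and TRM732, the partner of TRM7 in methylating the anticodon loop, by -1.67 ± 0.06 and -0.97 ± 0.12. TRM5, which makes the methylguanosine beside the anticodon, changed by -1.0 ± 0.06 and -0.86 ± 0.10, and NCL1, the methylcytosine enzyme, by -1.37 ± 0.06 and -0.66 ± 0.12. TRM7, TRM10 and TRM44 also passed in both measures, with mRNA changes of -0.79, -1.0 and -0.78. The TE calls of TRM7 and TRM10 were lost without the block, and that of TRM7 also without yJW1861. TRM9 and TRM12, the wybutosine enzyme, passed in mRNA, at -0.62 ± 0.07 and -0.32 ± 0.09, and in footprints, but not in TE. The mRNA call of TRM12 was lost without the block, and its footprint call without yJW1862 or yJW1863.

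Of the 7 pseudouridine synthase genes, 5 fell and 1 rose in mRNA and 4 fell and 1 rose in footprints. In TE 2 fell and 1 rose, shares near the 25.3% and 15.8% of all genes. PUS7, which modifies tRNA and several mRNAs, changed by -1.62 ± 0.06 in mRNA, -2.92 ± 0.12 in footprints and -1.33 ± 0.13 in TE, with edgeR adjusted p = 1.1e-05 for TE. PUS1, a broad tRNA pseudouridine synthase, had 75, 62.5, 73.4 and 79.9 mRNA RPKM starved, against 58, 58.9, 65.7 and 63.4 replete. Its footprints were 16.8, 27.7, 28.0 and 30.1 RPKM starved, against 25, 48.3, 48.1 and 56.9 replete. PUS1 footprints changed by -1.07 ± 0.09, and its TE change was -1.16 ± 0.10 (edgeR adjusted p = 4.9e-06) with an mRNA change of 0.06 ± 0.06 (edgeR adjusted p = 0.39).

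PUS5 was the only member that rose, in all 3 measures. Its footprints were 12.4, 19.2, 24.4 and 25.5 RPKM starved, against 2.79, 6.57, 7.25 and 4.44 replete, and every starved value lay above every replete one. The log2 change was 1.68 ± 0.19 in footprints and 1.48 ± 0.18 in TE (edgeR adjusted p = 5.5e-05 for TE). The rise in mRNA was small, at 0.18 ± 0.07 (edgeR adjusted p = 0.041), and it lost its call with any strain left out. PUS9, which acts on mitochondrial tRNA, had a TE change of 0.16 ± 0.12 that did not pass (edgeR adjusted p = 0.33). Its mRNA call, on a change of -0.17, was lost without the block and without BY4741, yJW1862 or yJW1863. PUS2, PUS4 and PUS6 passed in mRNA, at -0.80, -1.20 and -0.24, and not in TE, where their changes were -0.06, -0.22 and -0.02. The mRNA call of PUS6 was lost without the block.

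All 4 Elongator genes fell in mRNA and footprints, and 3 of 4 in TE. ELP2, a scaffold subunit, had 15.0, 23.0, 20.2 and 18.5 mRNA RPKM starved, against 46.6, 62.9, 63.7 and 61.5 replete. Its footprints were 2.1, 6.19, 5.39 and 5.44 RPKM starved, against 23.2, 39.0, 40.1 and 42.7 replete. The log2 change in ELP2 was -1.80 ± 0.06 in mRNA, -3.25 ± 0.13 in footprints and -1.47 ± 0.15 in TE. ELP3, the catalytic subunit, changed by nearly the same amounts, -1.76 ± 0.06 in mRNA, -3.20 ± 0.13 in footprints and -1.46 ± 0.14 in TE. ELP4 and ELP6 belong to the accessory ring of the complex. ELP4 changed by -0.60 ± 0.06 in mRNA and -0.76 ± 0.14 in TE, while ELP6 changed by -1.45 ± 0.09 in mRNA and by only -0.16 ± 0.15 in TE (edgeR adjusted p = 0.41).

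Among the dihydrouridine synthase genes, DUS3 fell most. It had 11.4, 17.1, 16.0 and 11.7 mRNA RPKM starved, against 35.4, 49.0, 48.9 and 40.5 replete, and 1.37, 2.36, 3.04 and 3.33 footprint RPKM starved, against 14.5, 26.6, 27.5 and 30.5 replete. Its TE change was -1.81 ± 0.12 (edgeR adjusted p = 4.9e-07), and DUS1 followed with -1.08 ± 0.18. DUS4 fell in mRNA, by -0.83 ± 0.09, with a TE change of 0.08 ± 0.16. No TAD gene passed in TE. TAD2 and TAD3 fell in mRNA, by -2.14 ± 0.12 and -0.39 ± 0.09, although the starved libraries held only 42 to 59 mRNA counts of TAD2. TAD1, which deaminates an adenosine next to the anticodon of alanine tRNA, had an mRNA change of -0.14 ± 0.07 (edgeR adjusted p = 0.11).

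**Figure D2:**
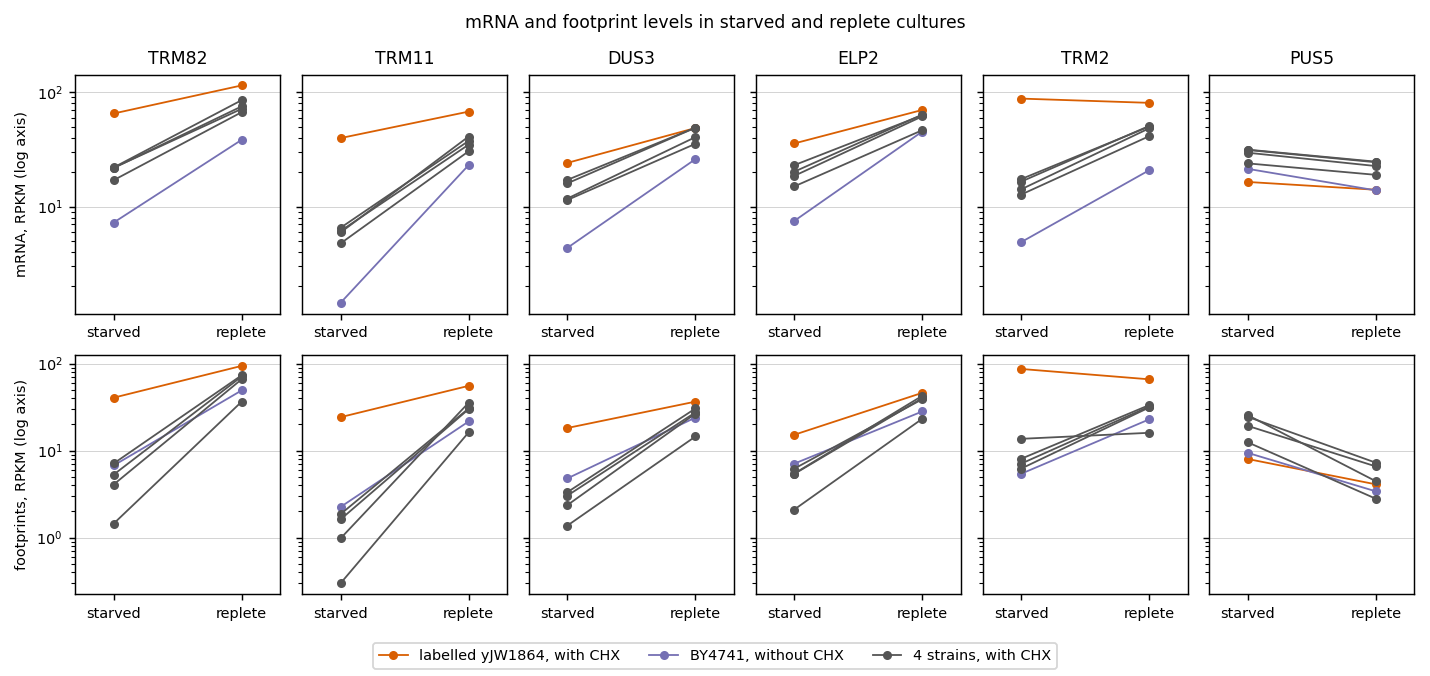
mRNA and footprint levels in RPKM, on log axes, of 6 of the genes in starved and replete samples. Grey lines join the samples of the 4 strains with CHX, orange those of the strain labelled yJW1864 and purple those of BY4741 without CHX. TRM2 stays near 80 mRNA RPKM in both states of the strain labelled yJW1864, slightly higher when starved. PUS5 footprints are higher starved than replete in the 4 strains with CHX and in BY4741 without CHX.

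A list of 41 other genes of tRNA modification and its regulation, which the symbol rule does not reach, was tested in the same fit. Among them are the methyladenosine enzyme of GCD10 and GCD14, the Elongator subunits IKI1 and IKI3, and the wobble thiolation genes NCS2, NCS6, URM1 and UBA4. Regulators of Elongator, such as HRR25, SIT4, SAP185 and SAP190, are also counted in it. In mRNA 28 fell and 7 rose, against 38.1% and 42.1% of all genes, and in footprints 25 fell and 4 rose, against 36.1% and 39.9%. In TE 16 fell and 1 rose, against 25.3% and 15.8% of all genes. The list's median changes were -0.42 in mRNA and -0.20 in TE, smaller than those of the 33 genes. IKI3, the largest subunit of Elongator, changed by -1.44 in mRNA and -1.25 in TE, while IKI1 changed by -0.42 in mRNA and by -0.26 in TE, which did not pass. KRE33, the cytidine acetyltransferase of rRNA and tRNA, had the lowest changes in the list, -3.18 in mRNA and -2.98 in TE. GCD10 changed by -2.07 and -1.60, whereas UBA4 rose by 0.26 in mRNA.

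Without CHX, starvation left TE of these genes near the median of all genes. In the BY4741 pair without CHX, 27 members met the minimum counts, and their median log2 change in TE was 0.01, with single genes between -0.74 and 0.87. None of the 27 was lower in TE by at least 1 on the log2 scale, against 1.57% of all 4572 genes. Their mRNA was still lower in starved cells: the median change was -1.47, and 19 of 27 were lower by at least 1, against 12.4% of all genes. Footprints had a median change of -1.42, and 17 of 27 were lower by at least 1, against 15.3% of all genes. With CHX, the same strain had median changes of -1.20 in mRNA, -1.33 in footprints and -0.67 in TE over 31 members. Each of these pairs is 1 culture, so the values have no replicate error.

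The difference between the pair without CHX and the 4 pairs with CHX was tested in edgeR, with the lone pair assumed to vary like the others. For 32 members, TAD2 being under the minimum, 6 had a higher TE change without CHX and 0 a lower one, where 2.48% of the 5042 genes tested were higher. In mRNA, 6 had a lower change without CHX, where 4.94% of all genes did. In footprints 0 were called, against 0.516% of all genes. Before adjustment, 7 members had an edgeR p under 0.05. The share of all genes at that unadjusted threshold is not given here, so no footprint difference is drawn from those 7. DESeq2 also called 0 footprint differences among members, and edgeR called 1 without BY4741. The median difference, without CHX minus with CHX, was 0.77 in TE, -0.31 in mRNA and 0.51 in footprints. The count of 6 in TE was 1 without yJW1862, 3 without yJW1863, 4 without yJW1861 and 7 without BY4741.

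DUS3 gave the smallest adjusted p in TE. Without CHX it had 4.35 mRNA RPKM starved, against 26 replete, and 4.79 footprint RPKM starved, against 24 replete. Its TE was thus 1.1 starved and 0.923 replete without CHX, where BY4741 with CHX had 0.120 starved and 0.411 replete. The difference in log2 TE change was 1.79 ± 0.26 (edgeR adjusted p = 0.003), and that in mRNA change was -1.02 ± 0.16. ELP2 was called as well, with a TE of 0.947 starved and 0.623 replete without CHX, and differences of 1.81 ± 0.33 in TE (edgeR adjusted p = 0.012) and -1.06 ± 0.15 in mRNA. ELP3, TRM8, PUS1 and TRM1 were the other members called in TE, at 1.48, 1.29, 1.18 and 1.08. Among the 6, DUS3 alone kept its TE call whichever strain was left out. TRM11 had a larger difference of 2.56 ± 0.62 that did not pass (edgeR adjusted p = 0.053), on 23 footprints and 33 mRNA counts in the starved sample without CHX. PUS5 footprints were again higher in starved cells without CHX, with 9.41 RPKM starved against 3.40 replete, on 53 and 14 footprints.

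Comparing samples with and without CHX in the same state showed where the TE values parted. In starved BY4741, CHX-treated cells had higher mRNA than untreated ones for 23 of 27 members, with a median log2 difference of 0.59, and 5 were higher by at least 1, against 2.11% of all genes. Footprints had a median of -0.31, with 3 members lower by at least 1, against 4.5% of all genes. TE was lower with CHX for 23 of 27 members, with a median of -0.62, and 10 were lower by at least 1, against 8.04% of all genes. The 10 were TRM82, DUS3, ELP2, ELP3, DUS1, TRM8, PUS1, TAD1, TRM44 and PUS7, with values between -2.51 for TRM82 and -1.01 for PUS7. A minimum of 32 footprints left 6 of them, since TRM82, DUS1, DUS3 and TAD1 had only 15, 19, 22 and 29 footprints in the starved library with CHX. In replete BY4741 the median differences of 32 members were 0.30 in mRNA, 0.07 in footprints and -0.18 in TE. There, 1 member was higher in mRNA by at least 1, against 2.42% of all genes, and 2 were lower in TE by at least 1, TRM12 and TRM13, against 8.32% of all genes. The way cells were collected differed along with CHX, so drug and harvest cannot be told apart, and each state has 1 sample per treatment. Without subtraction of the median of all genes, the members' footprint and TE medians were -1.05 and -1.56 in starved BY4741. In replete BY4741 they were -0.44 and -0.98. The subtracted medians of all genes in footprints and TE were -0.74 and -0.94 starved, and -0.51 and -0.80 replete. The sign of the members' replete footprint median thus depends on that scaling.

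**Figure D3:**
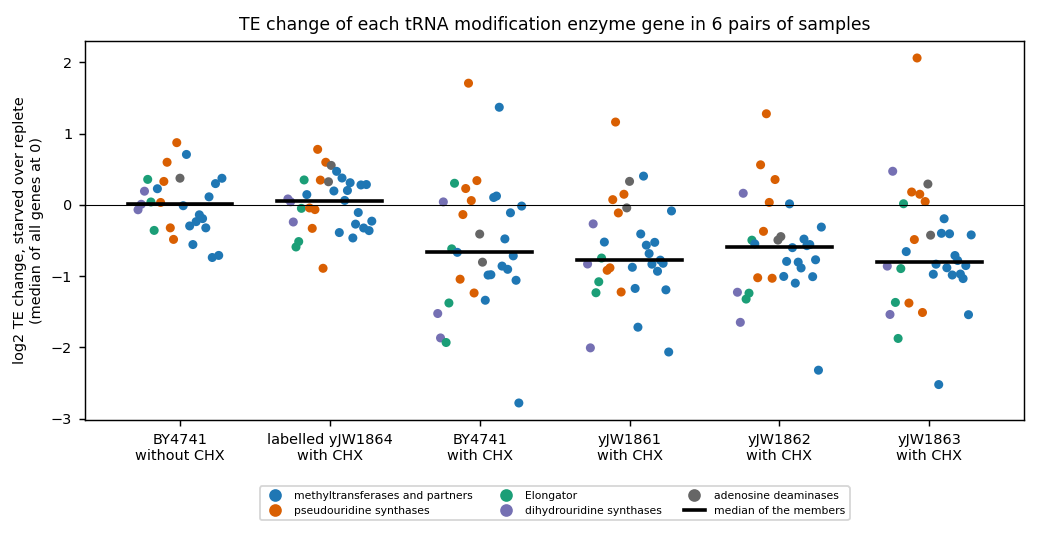
Log2 change in TE, starved over replete, of each gene that met the minimum counts, in 6 pairs of samples, from RPKM with the median of all genes at 0. The bar is the median of the members in that pair. It lies at 0.01 without CHX and 0.05 in the strain labelled yJW1864, and between -0.81 and -0.59 in the 4 strains with CHX.

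In the strain labelled yJW1864, harvested with CHX, starved and replete samples of these genes differed less in its 1 pair. Over 32 members the median log2 change was -0.52 in mRNA, -0.46 in footprints and 0.05 in TE. In mRNA 7 members were lower by at least 1, against 8.73% of all genes, in footprints 8, against 14.8%, and in TE none, against 2.73%. The authors' ribi genes had medians of -0.76 in mRNA and -0.19 in TE in this pair. The test against the 4 strains, which the comparison of the pair without CHX also uses, assumes that this lone pair of 1 culture varies like theirs. In it edgeR called 18 of 33 members higher in mRNA change, where 12.9% of the 5058 genes tested were, and 1 lower, PUS9, where 4.17% were. In footprint change 21 were higher, against 10.1% of all genes, and in TE change 6, against 2.93%. The median difference, the strain labelled yJW1864 minus the 4 strains, was 0.57 in mRNA, 1.35 in footprints and 0.67 in TE. Leaving out yJW1862 lowered the counts to 11 in mRNA and 2 in TE.

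TRM1 and TRM2 had near-equal mRNA levels in both states of this strain. TRM1 had 80.5 mRNA RPKM starved and 83.4 replete, and 111.8 footprint RPKM starved and 103.8 replete. The difference from the 4 strains was 1.4 ± 0.16 in mRNA, 2.64 ± 0.19 in footprints (edgeR adjusted p = 2.6e-05) and 1.27 ± 0.23 in TE (edgeR adjusted p = 0.0077). TRM2 had 87.9 mRNA RPKM starved and 80.7 replete, and differed by 1.79 ± 0.12 in mRNA, edgeR adjusted p = 0.00014. TRM11 had 39.7 mRNA RPKM starved and 67.7 replete, both above the 4.76 to 6.52 starved and 30.4 to 40.9 replete of the 4 strains. It differed by 1.87 ± 0.14 in mRNA and 3.53 ± 0.38 in footprints. DUS3, at 24.1 mRNA RPKM starved and 48.6 replete, was still lower in mRNA when starved, but its TE was 0.755 starved and 0.753 replete. The difference in TE change was 1.82 ± 0.23 for DUS3 (edgeR adjusted p = 9.4e-04), 1.69 ± 0.34 for TRM82 and 1.26 ± 0.22 for TRM8. The TE calls of TRM1 and TRM82 were lost without yJW1862, and that of TRM82 also without yJW1861.

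In the strain labelled yJW1864, the 4 Elongator genes had median differences of 0.70 in mRNA and 1.44 in footprint change. The medians were 0.59 and 1.51 for the 16 genes of the methyltransferase group, and 0.64 and 1.76 for the 3 dihydrouridine synthases. For the 7 pseudouridine synthases they were 0.21 and 0.30, with single genes between -0.59 and 0.61 in mRNA and between -0.88 and 1.27 in footprints. Over all genes tested the median was 0.04 in both measures. PUS9 had 18.6 mRNA RPKM starved and 27.9 replete, a difference of -0.59 ± 0.14 from the 4 strains. NCL1 had 47.3 mRNA RPKM starved and 106.9 replete, and its difference of 0.03 ± 0.13 in mRNA did not pass (edgeR adjusted p = 0.91), while that in footprints did, at 0.77 ± 0.22. That footprint call was lost with DESeq2 and without yJW1861, yJW1862 or yJW1863. No TAD gene was called in any measure. The part of the STB3 reads and of the marker genes in these differences was not tested.

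Through the metabolic cycle most of these genes had their highest mRNA and TE in the oxidative phase. The deposited table places time points 4 to 7 in the reductive charging phase and 9 to 11 in the oxidative phase, when dissolved oxygen falls. Of the 33 members, 32 met the minimum mRNA counts in all 16 samples, TAD2 being the exception with as few as 45. Highest mRNA came at time point 10 for 17 and at 11 for 14 of the 32, and lowest mRNA at time point 2 for 12 and at 3 for 17. Highest TE came at time point 11 for 26 of 32. With TE taken over the median of its sample, TRM10, ELP3, ELP6, TAD3, TRM12 and TRM732 had their highest value elsewhere. Shares of all genes with their highest or lowest value at these time points are not given here. The median over members, as log2 about each gene's mean, was -1.0 at time point 3 and 1.18 at 11 in mRNA, and -0.69 and 0.72 in TE. The median of all genes was -0.12 and -0.23 in mRNA and -0.23 and 0.17 in TE at those time points. TE of all genes was thus raised as well, with medians between 0.17 and 0.29 at time points 9 to 12.

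**Figure D4:**
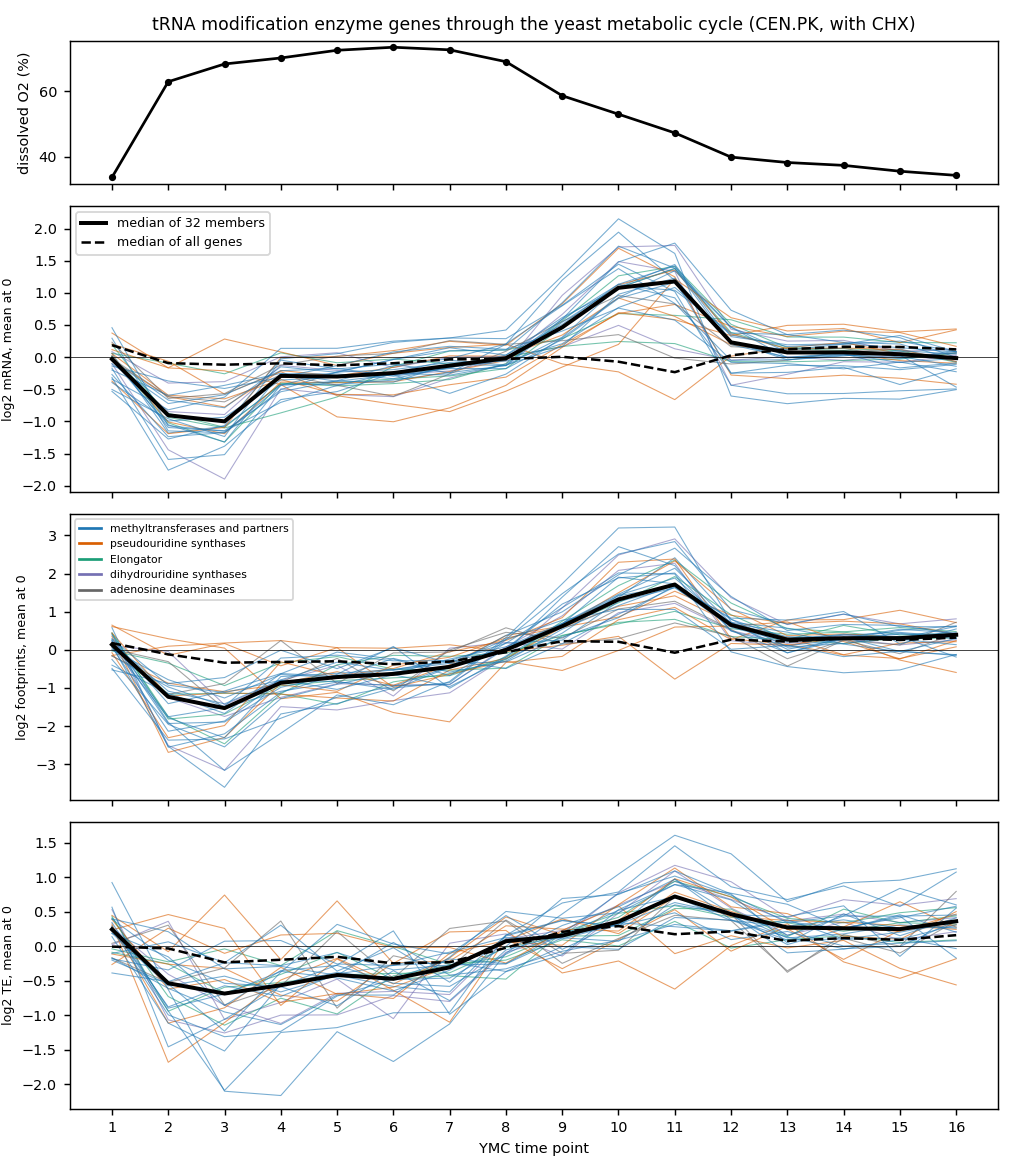
Dissolved oxygen in percent and, below it, log2 mRNA, footprints and TE of 32 genes at 16 YMC time points, each gene about its own mean. Thin lines are single genes coloured by enzyme group, the thick line is their median and the dashed line the median of all 4838 genes that met the minimums. The thick line is lowest at time point 3 and highest at time point 11 in all 3 measures.

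The range of a gene, its highest over its lowest value in the 16 samples, had a median of 4.94-fold in mRNA, 10.6-fold in footprints and 3.15-fold in TE. A range of at least 4-fold was seen in 19 of 32 members for mRNA, against 29.7% of 4838 genes, in 27 for footprints, against 49.2%, and in 12 for TE, against 12.6%. The 12 are TRM11, TRM82, PUS7, TRM44, DUS3, TRM13, TRM5, PUS1, DUS4, ELP2, DUS1 and TRM8. Ribi genes of the authors had a median TE range of 5.29-fold, with 112 of 161 at 4-fold or more. No time point has a replicate, and without time point 11 the count of members at 4-fold or more in TE was 7, against 10.2% of all genes. With TE taken over the median of its sample the count was 5, against 9.49% of all genes, and with the second highest over the second lowest TE it was 3, against 5.62%.

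TRM11 had the widest TE range, 13.6-fold with a 95% counting interval of 11.5 to 16.1. Its TE was 0.109 at time point 4 and 1.48 at time point 11, on 163 and 7611 footprints. Its mRNA had a lowest value of 15.3, a median of 31.2 and a highest of 164.3 RPKM, and its footprints of 2.01, 22 and 167.4 RPKM. TRM82 followed with an 11.6-fold TE range (95% counting interval 9.23 to 14.7) and an mRNA range of 9.98-fold. Its TE was 0.158 at time point 3 and 1.84 at time point 11, on 88 and 7850 footprints. The second highest over the second lowest TE was 5.0-fold for TRM82 and 10.8-fold for TRM11. PUS7 had a TE of 0.188 at time point 2 and 1.19 at time point 11, a range of 6.31-fold. DUS3 had the widest mRNA range of the 32, 12.4-fold, with a TE range of 5.38-fold.

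At the other end, ELP6, TRM732 and TRM9 had TE ranges of 1.56-fold, 1.72-fold and 1.76-fold. Their mRNA nevertheless ranged 3.43-fold, 5.22-fold and 5.19-fold. ELP6 also had the highest median TE of the 33, 1.56, while PUS2 had the lowest, 0.227. The most abundant transcripts by mean mRNA were TRM112, at 118.5 RPKM, and NCL1, at 61.7 RPKM, and the least abundant were TAD2, at 5.53 RPKM, and TAD1, at 12.5 RPKM. ELP4 had the flattest mRNA, with a range of 1.42-fold.

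PUS2 and PUS5 departed from the common course. PUS2, a close relative of PUS1, had its highest mRNA, 41.4 RPKM, at time point 11, but its lowest TE, 0.162, in the same sample, and its highest TE, 0.415, at time point 3. PUS5 had its lowest mRNA, 8.09 RPKM, and its lowest footprints, 5.95 RPKM, at time point 11, and its highest mRNA, 15.6 RPKM, at time point 3. However, its highest footprints, 13.0 RPKM, and its highest TE, 1.19, came at time point 10, also in the oxidative phase. These 2 neighbouring samples held 380 footprints at time point 10 and 149 at 11, with no replicate.

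Time point 11 was set against time point 4 as single samples of the oxidative and the reductive phase. The median log2 change of 32 members, 11 over 4, was 1.56 in mRNA, 2.33 in footprints and 1.07 in TE. Higher by at least 1 were 26 members in mRNA, against 18.7% of 4965 genes, 27 in footprints, against 25.1%, and 17 in TE, against 10.4%. TRM11 was higher by 3.42 in TE, TRM82 by 2.36, TRM5 by 1.90 and DUS3 by 1.82. PUS2 and PUS5 had TE changes of -0.77 and -0.62, and PUS5 was the only member lower in mRNA, at -0.63.

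Log2 TE changes in the cycle and on starvation were set side by side for each gene. Across 32 members, Pearson's r between the YMC change and the starvation change in TE was -0.66 and Spearman's rho -0.51, and across 4829 other genes r was -0.45 and rho -0.35. Without TRM11 and TRM82 the members' r was -0.53. These are correlations across genes, which are not independent replicates, and the points share the CHX treatment of both sets of samples, the base composition of each gene and its abundance. Of the 32 members, 26 were lower in TE in starved cells and higher at time point 11, as were 1573 of the 4829 other genes (32.6%).

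**Figure D5:**
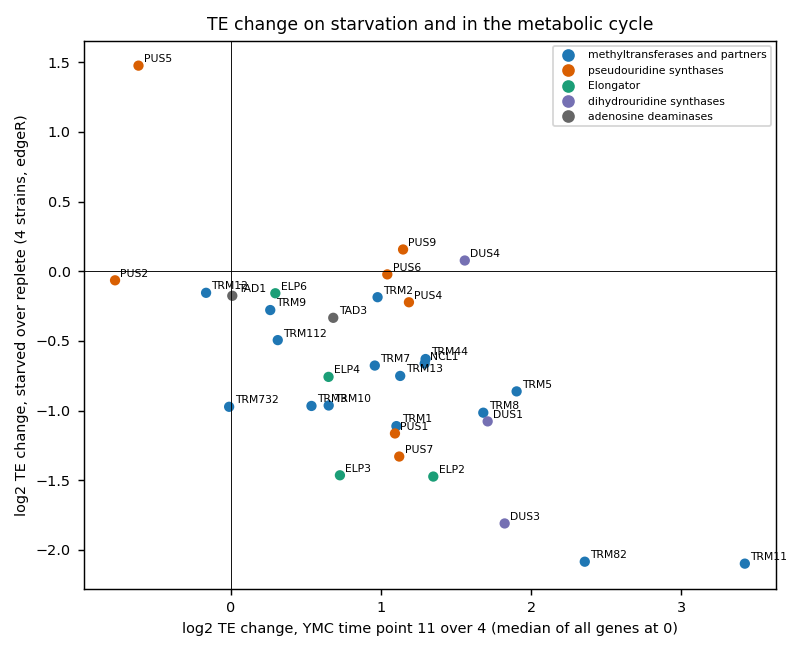
Log2 change in TE between YMC time points 11 and 4 (horizontal) and between starved and replete cells of 4 strains (vertical) for 32 genes, coloured by enzyme group. TRM11 and TRM82 lie at the lower right with YMC changes of 3.42 and 2.36, and PUS5 at the upper left with a starvation change of 1.48.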

How the data were processed

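Ribosome profiling and RNA-seq libraries of 28 yeast samples were read from the deposited tables. The methods do not say whether reads with the same molecular identifier were collapsed. The authors removed rRNA and tRNA reads with Bowtie (version 1.1.2 in the submitters' processing notes), aligned the rest with TopHat2 2.1.1 (build sacCer3), and counted P-sites of footprints and the ends of stranded RNA-seq reads on coding sequences. The deposited counts are whole reads per gene, not normalized, and the deposited RPKM were normalized by the authors to coding length and total reads. Regression of counts over RPKM on gene length gave 108.7 uncounted bases per gene in 44 libraries and 33.7 in the 12 of yJW1861, yJW1862 and yJW1863. Starved and replete samples of each strain have the same mask. Left out were 784 dubious ORFs, rows with no countable position and 5 rows not common to all libraries. A deposited table gives dissolved oxygen in percent, as the authors recorded it, the elapsed hours and the phases.

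TE was footprint RPKM over mRNA RPKM. For single pairs, log2 changes had the median of all genes subtracted, requiring 128 mRNA counts and 1 footprint per gene in both samples. Counts were tested with edgeR 4.0.16 in R 4.3.3 (quasi-likelihood, TMM, Benjamini-Hochberg over all genes; with the same minimums applied to means), with strain as a block and TE as the interaction of starvation and library type. Each culture with CHX was split into its starved and replete sample, so strain pairs them, and their deviations from group means correlated with r of 0.565 to 0.799 for mRNA and 0.438 to 0.740 for footprints, a value that the mask of BY4741 also enters. The scripts were tested on simulated data. Intervals at 95% cover counting error only.

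Members and lists were chosen with earlier results of these data known. Genes named with values are the 3 largest changes per starvation result that moved alike in 4 strains, the 3 widest and narrowest YMC TE ranges with at least 32 footprints throughout, up to 3 smallest adjusted p-values per difference, the most and least abundant members, and others described for their group, chosen after their values were seen. Coordinates are those of RefSeq assembly R64, the same build. Planned promoter motifs were not analysed here. Alternatives were RLE factors, DESeq2 1.42.0, other minimums, no block, each strain left out, no median subtraction, TMM-scaled CPM and other definitions of the YMC range.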

Additional observations from a re-analysis of the deposited data

Results flagged for a closer look

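In 3 of 90 groups of 4 strains screened, each a gene in 1 measure, 1 strain lay apart from the other 3 in its log2 change on starvation. The gap test is passed by chance in about 1 of 20 groups, so 3 of 90 is no more than chance gives. PUS7 footprints changed by -3.33 in yJW1863, against -2.86 to -2.77 in the others. TRM1 mRNA changed by -1.34 in BY4741, against -1.74 in each of the others. TRM2 footprints changed by -0.57 in BY4741, against -2.66 to -2.45 in the others.

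The starvation change differed between the pair without CHX and the 4 strains with CHX, by edgeR's test of that difference. In mRNA the difference was -1.06 for ELP2, -1.02 for DUS3 and -0.82 for ELP3 (edgeR adjusted p = 0.0039, 0.007 and 0.0084). In TE it was 1.79 for DUS3, 1.81 for ELP2 and 1.29 for TRM8 (edgeR adjusted p = 0.003, 0.012 and 0.019). The pair without CHX is 1 culture, and harvest cannot be told apart from the drug.

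The strain labelled yJW1864 differed from the same 4 strains in the same test. In mRNA the difference was 1.79 for TRM2, 1.87 for TRM11 and 1.4 for TRM1. In footprints it was 2.64 for TRM1, 2.44 for DUS3 and 3.53 for TRM11. In TE it was 1.82 for DUS3, 1.26 for TRM8 and 1.27 for TRM1.

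Genes outside the list had reads that the strain labels do not lead to, or that 1 library type alone held. MET15, which BY4741 is labelled to lack, had 255 footprints in its starved and 148 in its replete library with CHX. In the libraries labelled yJW1864, STB3 had 1062 mRNA counts starved and 921 replete, although its deletion is labelled. LEU2, the labelled marker at DOT6 there, had 895 footprints starved and 17 replete, with 1 mRNA count starved and 0 replete. What produced these counts was not tested.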

How the results depend on the processing

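Calls of falling members on starvation moved by less than 1.5 times under every alternative tried. The count of members that rose in mRNA, 1 for PUS5, was 0 with RLE factors, with DESeq2, with no filter, with no replicate block and with any strain left out. Leaving out the block lowered the TE calls over all genes from 2081 to 988, and without it the mRNA calls of PUS5, PUS6, PUS9 and TRM12 and the TE calls of TRM7 and TRM10 were lost, with no other starvation call of a member changed. The median TE change of members ranged between -0.78, without BY4741, and -0.65 with a strain left out.

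With strains left out in turn, members with a higher TE change without CHX ranged between 1 and 7, and with a higher footprint change between 0 and 1, that 1 without BY4741. Calls over all genes in that difference ranged between 171 and 306 in mRNA, 0 and 137 in footprints and 80 and 191 in TE, lowest without yJW1862 in mRNA and TE, and in footprints 0 without yJW1861, 4 without yJW1862 and 137 without BY4741, and DESeq2 called 73 in footprints where edgeR called 26. For the strain labelled yJW1864, members with a higher change ranged between 11 and 20 in mRNA and 2 and 8 in TE. Calls over all genes ranged between 520 and 1027 in mRNA, 435 and 1212 in footprints and 80 and 246 in TE, lowest without yJW1862 in mRNA and TE and highest without BY4741 in footprints and TE. The causes were not tested.

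Without subtraction of the median, the CHX effect in starved BY4741 had medians of -1.05 in footprints and -1.56 in TE, with 12 members higher in mRNA and 23 lower in TE by at least 1. In replete BY4741 the medians were 0.59 in mRNA, -0.44 in footprints and -0.98 in TE, with 2 members higher in mRNA and 15 lower in TE. Shares of all genes on this scale are not given here. The median of all genes in TE was itself -0.94 starved and -0.80 replete, close to the threshold. These counts thus cannot be read as a trait of the members. With subtraction, a minimum of 32 footprints left 6 lower in TE when starved, and no minimum left 1 when replete. The YMC median of TE, time point 11 over 4, was 1.41 without subtraction.

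Members with a YMC TE range of at least 4-fold numbered 5 with TE over each sample's median, 3 with the second highest over the second lowest (median range 2.34-fold) and 7 without time point 11, against 9.49%, 5.62% and 10.2% of all genes. A range of 8-fold was reached by 2 of 32 members, against 3.8% of all genes. Planned promoter motifs were not run. TRM11 had 3 footprints in starved BY4741 with CHX, so its changes rest on few reads, and neither CHX states nor time points have replicates.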
